A study of Mus musculus with 6 samples.

Results

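The genes described here are 9 transcription factors of glial and neural stem cells, Sox9, Sox2, Sox10, Sox4, Sox11, Nfia, Nfib, Olig2 and Pax6. They were taken by gene symbol from the 23282 rows of each deposited table, where all 9 have 1 row, and 7 of them had enough reads to enter the fit of 11712 genes. The members were picked with their detection and their change in these libraries already known, so that their values are given as a description, without a test.

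RNA was sequenced from a line of mouse brain astrocytes, Ink4a -/- in the labels and Ink4a/Arf-/- in the study's methods, that carried either the empty pcDNA3.1-puro plasmid (control, 3 libraries) or pcDNA3.1-JAG1-puro (JAG1-overexpressing, 3 libraries). Ink4a and Arf are tumor suppressors encoded by the same locus, and its loss is shared by both groups, although the labels give the controls the genotype WT. The labels do not say whether the replicates were separate transfections, nor whether the transfected cells were 1 clone, so that p-values measure the spread between these libraries, which may be technical. The astrocytes were grown in serum. The libraries read the 3' end of polyadenylated RNA (QuantSeq) and held between 14341634 and 20489062 counted reads each, and a gene's count there does not grow with the length of its transcript. Levels are read counts scaled by library size and edgeR's TMM factors (CPM), and fold changes are log2 values of JAG1-overexpressing over control cells with the standard error of edgeR's quasi-likelihood fit. A limit of 3 reads corresponded to between 0.148 and 0.206 CPM and covers counting error only.

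SOX proteins bind DNA through a high-mobility-group box and are grouped by sequence. SOX2 (group B1) maintains neural stem cells, SOX9 (group E) drives the switch of neural progenitors to glia and is kept in astrocytes, SOX10 (group E) specifies oligodendrocytes and neural crest cells, and SOX4 and SOX11 (group C) act in neural precursors and young neurons. NFIA and NFIB are nuclear factor I proteins that open glial gene expression together with SOX9. OLIG2 is a basic helix-loop-helix factor of oligodendrocyte precursors, and PAX6 is a paired-box factor of radial glia. JAG1 is a ligand of NOTCH receptors, and NOTCH signaling is known for promoting astrocyte fate in the developing brain.

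The label check came first. Jag1 was at 8.98, 10.8 and 11.2 CPM in the control libraries and at 15.1, 13.6 and 13.8 CPM in the JAG1-overexpressing libraries, so that each of the latter lay above each control (log2 fold change 0.46, standard error 0.11, edgeR quasi-likelihood adjusted p = 0.00446). Whether 3' reads of the plasmid's transcript fall in the Jag1 row is not given in the sources used here, so that the size of this difference does not measure the overexpression. Cdkn2a, the gene of the Ink4a/Arf locus, had at most 5 reads in any library. Of the astrocyte markers, Gfap and Aqp4 had 0 reads in all 6 libraries, the glutamate transporters Slc1a2 and Slc1a3 had at most 2 reads, and Fabp7 had at most 1, whereas Vim, an intermediate filament gene of many cell types, reached 3104 ± 221 CPM in the controls and 3212 ± 38.3 CPM with JAG1 (SD, n = 3 each). Other astrocyte markers were detected, among them the connexin gene Gja1 at 151 and 96.6 CPM, Glul at 26.8 and 15.2 CPM, Apoe at 4.15 and 2.40 CPM and Aldh1l1 at 2.98 and 0.781 CPM in control and JAG1-overexpressing cells. Of the 13 listed astrocyte markers, 5 had at most 3 reads in every library and 8 were tested.

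Of the 9 factors, 4 had a level that differed at least 2-fold between the groups and a start site in the RefSeq promoter table of GRCm38.p6, the build that the submitters' processing notes also name. Their windows are shown because 2 of these genes, Sox4 and Sox11, were lower together in JAG1-overexpressing cells, and the other pair, Sox2 and Nfia, were higher. Each runs 5' to 3' from 250 bases before to 50 bases after the start, and capitals mark the SMAD3 element GTCTG on either strand, searched because the intracellular domain of JAG1 was studied with SMAD3.
Sox4, chr13:28953650-28953949 (- strand): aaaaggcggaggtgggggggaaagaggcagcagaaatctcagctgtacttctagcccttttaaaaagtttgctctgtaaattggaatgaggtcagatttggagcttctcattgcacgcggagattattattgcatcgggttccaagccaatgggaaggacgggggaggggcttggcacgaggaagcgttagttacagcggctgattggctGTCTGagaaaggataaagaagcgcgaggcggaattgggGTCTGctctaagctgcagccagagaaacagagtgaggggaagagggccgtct
Sox11, chr12:27342669-27342968 (- strand): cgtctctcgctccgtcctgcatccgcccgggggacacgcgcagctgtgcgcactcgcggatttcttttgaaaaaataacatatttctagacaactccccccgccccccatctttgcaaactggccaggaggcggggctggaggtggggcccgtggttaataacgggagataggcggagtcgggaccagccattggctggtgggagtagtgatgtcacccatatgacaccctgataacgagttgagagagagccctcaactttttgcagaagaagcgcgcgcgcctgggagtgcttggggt
Sox2, chr3:34649745-34650044 (+ strand): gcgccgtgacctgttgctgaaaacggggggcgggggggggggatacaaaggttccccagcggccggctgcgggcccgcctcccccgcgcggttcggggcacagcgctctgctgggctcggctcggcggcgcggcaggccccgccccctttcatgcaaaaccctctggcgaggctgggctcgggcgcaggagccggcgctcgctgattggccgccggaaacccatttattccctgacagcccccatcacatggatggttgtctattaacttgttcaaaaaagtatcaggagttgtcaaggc
Nfia, chr4:97581693-97581992 (+ strand): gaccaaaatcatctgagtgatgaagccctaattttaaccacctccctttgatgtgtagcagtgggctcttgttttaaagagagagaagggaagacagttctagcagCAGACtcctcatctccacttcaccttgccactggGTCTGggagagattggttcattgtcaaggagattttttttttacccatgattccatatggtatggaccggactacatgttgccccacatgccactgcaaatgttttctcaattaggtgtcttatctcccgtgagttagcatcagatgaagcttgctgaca

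The Nfia window belongs to a RefSeq start upstream of the gene's bounds in GENCODE M21, which are used for the gene positions given here, and lies inside E130114P18Rik on the opposite strand. In the whole table, windows were matched for Sox2, Sox4, Sox11, Nfia, Olig2 and Pax6, and not for Sox9, Sox10 and Nfib. Pax6 had 2 start sites, which made 7 windows. GTCTG or its complement was found in 5 of the 7 windows and in 49.6% of the 32851 windows of all genes. Sox4 and Nfia held 2 copies each, and Sox11 and Sox2 held none. With 2 genes in each direction and a motif this common, nothing is read from which of them held it. The NOTCH effector RBPJ has the core GTGGGAA, which was in 0 of the 7 windows and in 6.38% of all. The nuclear factor I half-site TTGGC was in 4 windows (46.7% of all), the SOX core AACAAT in 1 (10.7% of all) and the SOX core ACAAAG in 2 (18.7% of all). No motif contains another. These matches describe letters in short windows and no binding was measured. The SMAD3 site that the study reported in the human TWIST1 promoter lay further upstream than such windows reach, while its SNAI2 site lay within that distance. The study's figures also give a longer element around GTCTG, which was not searched. The GC content ranged from 44.7% for Nfia, which had 2 CpG dinucleotides, to 66.3% for Sox2, which had 27, around a median of 52.7% over all windows.

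Among the 9 factors, Nfia was far higher and Sox9, Sox4 and Sox11 were far lower in JAG1-overexpressing than in control cells. Sox2 was 2.01-fold higher, Nfib was moderately lower, Pax6 overlapped between the groups, and Sox10 and Olig2 were at or near 0 throughout. In the fit, 2 of the 7 tested members were higher and 4 were lower at an adjusted p under 0.05, in a comparison that called 55.1% of all tested genes, 27.4% higher and 27.7% lower. The groups did not overlap for 6 of the 7, 2 higher and 4 lower, against 62% of all tested genes, 31.1% higher and 30.9% lower. An absolute log2 fold change of at least 1 was seen for 5 of the 7, against 14.2% of all, and of at least 3 for 3 of the 7, against 3.66%. Nothing is read from these shares, since the change itself entered the choice of members. Sox11 passed the filter through its control libraries.

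**Figure D1:**
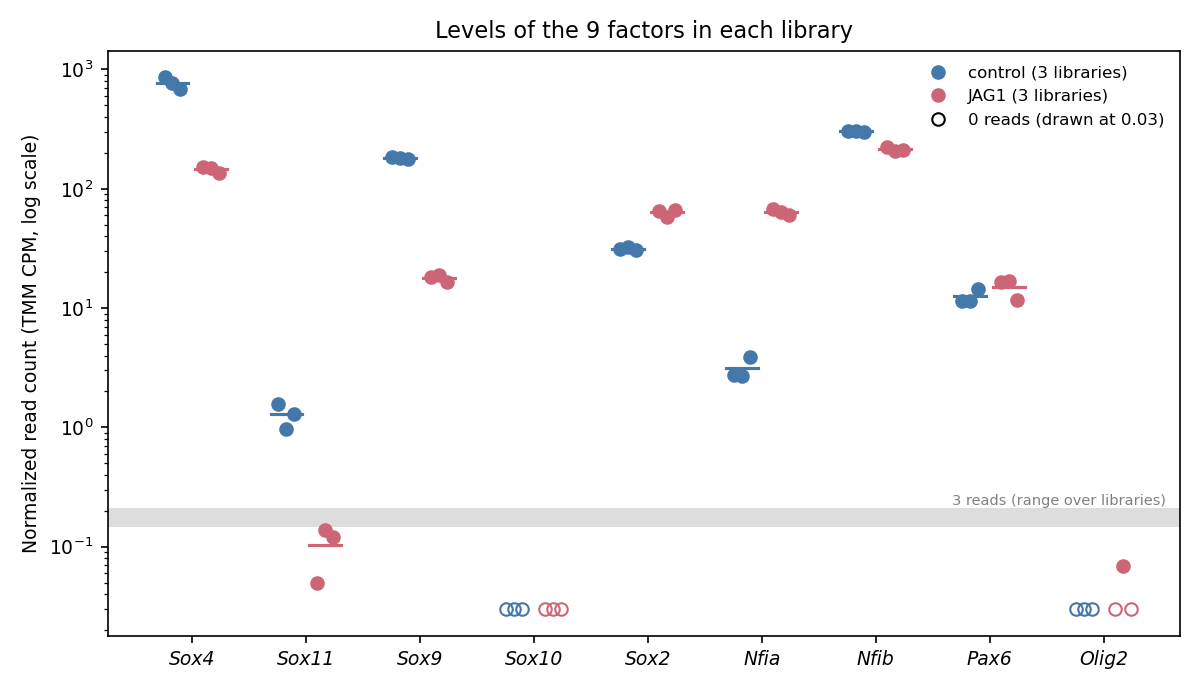
Normalized read count (TMM CPM, log scale) of each of the 9 factors in each of the 3 control (blue) and 3 JAG1-overexpressing (red) libraries, with bars at the group means, open circles for libraries with 0 reads and a grey band at the level of 3 reads. Sox4, Sox11 and Sox9 lie lower and Sox2 and Nfia higher in every JAG1-overexpressing library, whereas the 2 groups of Pax6 overlap.

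Sox9, on chromosome 11 (GRCm38, 112782224 to 112787760, + strand, 3 exons), encodes a SOX factor that astrocytes keep through adult life. Its level was 186, 180 and 177 CPM in the control libraries and 18.1, 19.1 and 16.6 CPM in the JAG1-overexpressing libraries. Every control library was more than 9 times every JAG1-overexpressing library. The means were 181 ± 4.64 and 17.96 ± 1.25 CPM (SD, n = 3 each), a log2 fold change of -3.33 (standard error 0.07), or 10.1-fold lower. In rank of mean level among the 11712 tested genes it went from 1053 in control to 6379 in JAG1-overexpressing cells. Even there Sox9 kept between 274 and 364 reads per library, far above the limit of detection.

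Sox10 and Sox8, the other members of group E, were not detected. Sox10 (chromosome 15, 79154908 to 79165240, - strand) and Sox8 had 0 reads in every library, which allows a level of up to 0.148 to 0.206 CPM, depending on the library. Of 11 genes known as SOX10 targets in oligodendrocytes, Schwann cells and melanocytes, 3 had 0 reads throughout and 3 were tested, of which S100b was lower (log2 fold change -1.77, standard error 0.54, adjusted p = 0.0166), from 0.937 to 0.252 CPM. S100b had 10, 2 and 2 reads in the JAG1-overexpressing libraries, near the limit of detection, and passed the filter through its control libraries. Among all tested genes 27.7% were lower. The most abundant of the list was Mitf, a melanocyte factor with other roles, at 7.83 and 7.91 CPM (log2 fold change 0.02, adjusted p = 0.905).

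Sox4, on chromosome 13 (28948919 to 28953713, - strand), is a gene of a single exon. It was the most abundant of the 9 factors in control cells, with 859, 775 and 689 CPM, and was at 151, 149 and 137 CPM in JAG1-overexpressing cells. The lowest control library was more than 4 times the highest JAG1-overexpressing library. The log2 fold change was -2.41 (standard error 0.08), or 5.32-fold lower, and its rank went from 162 to 1374. Sox4 remained more abundant than every other member but Nfib at this lower level, with at least 2169 reads per library.

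Sox11, on chromosome 12 (27334264 to 27342574, - strand), is the closest relative of Sox4 and also has 1 exon. It was rare in control cells, with 32, 18 and 25 reads (1.58, 0.966 and 1.31 CPM), and had 1, 2 and 2 reads in JAG1-overexpressing cells. The groups did not overlap, and the latter counts were at the limit of detection. From the summed reads, 75 against 5, control cells were 13.2-fold higher (95% counting interval 5.41 to 41.9, exact binomial). Sox12, the third member of group C, was at 19.6 and 22.4 CPM (log2 fold change 0.19, adjusted p = 0.159), so that the 3 genes of the group did not have a common direction.

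Genes known as targets of SOX4 and SOX11 were read from a list of 5. Of these, 4 were tested, and 3 were lower and 1 was higher, with a median log2 fold change of -2.43 against 0.00386 over all tested genes. Lower were 27.7% and higher 27.4% of all tested genes. Tubb3, the tubulin of young neurons, fell from 78.1 ± 4.67 to 8.40 ± 0.55 CPM (SD, n = 3; log2 fold change -3.21, standard error 0.08, adjusted p = 2.78e-10). Tead2, a factor of the Hippo pathway, fell from 162 ± 15.3 to 45.2 ± 3.76 CPM (log2 fold change -1.84, adjusted p = 1.42e-08), and Stmn2, a microtubule regulator, from 2.74 to 0.319 CPM (log2 fold change -3.03, adjusted p = 1.77e-05). Stmn2 had 9, 3 and 5 reads in the JAG1-overexpressing libraries, near the limit of detection, and passed the filter through its control libraries. Map2, a dendrite protein, rose from 25.1 to 51.3 CPM (log2 fold change 1.03, adjusted p = 2.78e-07). Tubb3, Stmn2 and Map2 are also neuron markers, while Rbfox3, Snap25, Syt1 and Dcx had at most 1 read in any library.

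Sox2, on chromosome 3 (34650405 to 34652461, + strand), is a single-exon gene that lies inside the longer noncoding gene Sox2ot on the same strand. It was at 31.1, 32.7 and 30.7 CPM in control and at 65.5, 58.5 and 66.1 CPM in JAG1-overexpressing cells. All 3 JAG1-overexpressing libraries lay above the controls, with a log2 fold change of 1.01 (standard error 0.07). Sox2ot itself had at most 6 reads in a library, against at least 587 for Sox2. Sox1 and Sox3, the other group B1 genes, had at most 1 read. For each read of Sox9 there were 0.167, 0.182 and 0.174 reads of Sox2 in the control libraries and 3.61, 3.06 and 3.97 in the JAG1-overexpressing libraries. This ratio is formed within a library and does not depend on normalization, and the order of the 2 genes was reversed between the groups.

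Of 7 genes known as SOX2 targets in stem cells, 3 had 0 reads and 2 were tested. Nes, the intermediate filament of neural progenitors, fell from 88.3 ± 4.54 to 46.7 ± 5.27 CPM (SD, n = 3; log2 fold change -0.92, standard error 0.08, adjusted p = 3.70e-06). The other, Nanog, a pluripotency factor whose pseudogenes can share its reads, was at 2.25 and 3.39 CPM (log2 fold change 0.57, adjusted p = 0.0623) and did not pass the test. Its lowest JAG1-overexpressing library, at 2.59 CPM, was barely above its highest control, at 2.576 CPM. All JAG1-overexpressing libraries lay above all controls for 31.1% of all tested genes.

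Other SOX genes were measured from a list of 14. Of these, 9 had at most 3 reads in every library and 5 were tested. In that number 3 were lower and none was higher, against 27.7% and 27.4% of all tested genes. Sox5 and Sox21 passed the filter through their control libraries, so that nothing is read from this count. Sox5 and Sox6 belong to group D, which lacks an activation domain and acts beside SOX9 in cartilage. Sox5 fell from 7.13 ± 0.538 to 0.262 ± 0.0742 CPM (log2 fold change -4.77, standard error 0.24, adjusted p = 3.00e-08) and Sox6 from 8.53 ± 0.221 to 3.14 ± 0.494 CPM (log2 fold change -1.43, standard error 0.15, adjusted p = 8.87e-06). With 4, 5 and 4 reads in the JAG1-overexpressing libraries, near the limit of detection, the fold of Sox5 is uncertain. Sox21, a repressor of group B2, had 20, 24 and 11 reads in control and 0 in each JAG1-overexpressing library, at least 5.30-fold lower. Sox15, the most abundant of the list, was at 167 ± 11.3 and 176 ± 12.1 CPM (log2 fold change 0.07, adjusted p = 0.365). Of 8 SOX9 targets of cartilage, 5 had 0 reads throughout, and Col11a1 was the 1 that could be tested, at 2.02 and 1.44 CPM (log2 fold change -0.48, adjusted p = 0.102).

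The make-up of all SOX reads was then compared within each library. The 19 SOX genes together had between 1087 and 1293 CPM in control and between 419 and 447 CPM in JAG1-overexpressing libraries. Sox4 took 63.3% to 66.4% of them in control and 32.5% to 35.6% in JAG1-overexpressing libraries, and Sox9 went from between 14.4% and 16.2% to between 3.96% and 4.56%. Sox2 went from between 2.40% and 2.82% to between 14% and 15.7%. Sox15 had the largest share in JAG1-overexpressing libraries, 39.0% to 42.1% against 13.8% to 14.4% in control, although its own level did not pass the test.

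**Figure D2:**
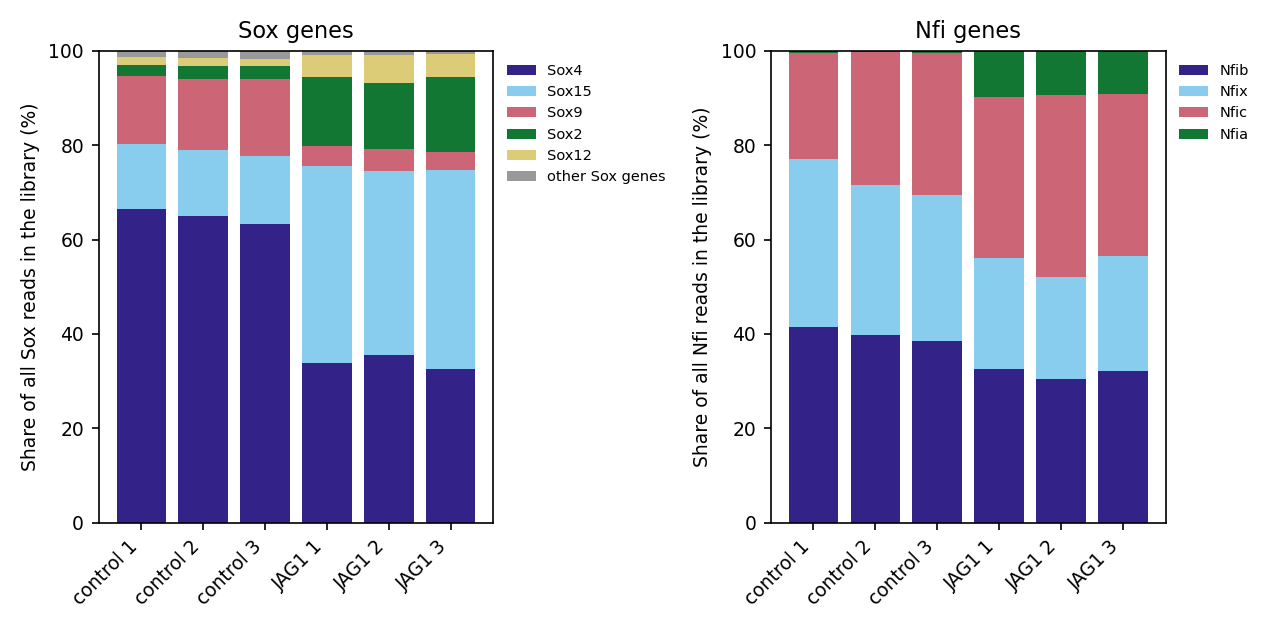
Share (%) of the reads of all 19 Sox genes (left) and of the 4 Nfi genes (right) taken by each gene in each of the 6 libraries. Sox4 and Sox9 take smaller and Sox15 and Sox2 larger shares in JAG1-overexpressing libraries, and Nfia goes from at most 0.502% to at least 9.24% of Nfi reads.

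Nfia, on chromosome 4 (97772734 to 98118874, + strand), has 7 coding transcripts with 4 different 3' ends in GENCODE M21, which a count per gene does not tell apart. Its level was 2.76, 2.68 and 3.92 CPM in control and 67.4, 63.7 and 60.5 CPM in JAG1-overexpressing cells. No library of one group came near the other. The log2 fold change was 4.35 (standard error 0.12), a 20.4-fold difference, and the rank went from 9757 to 3019 of 11712. With between 50 and 75 reads per library, Nfia was detected in control cells as well.

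Nfib, also on chromosome 4 (82290173 to 82705750, - strand), was at 303, 304 and 302 CPM in control and at 224, 207 and 210 CPM in JAG1-overexpressing cells. The 3 control libraries were nearly equal and lay above all JAG1-overexpressing libraries, with a log2 fold change of -0.50 (standard error 0.05). Nfib stayed the more abundant of the pair in every library. There were 110, 113 and 76.9 reads of Nfib per read of Nfia in control and 3.33, 3.26 and 3.48 in JAG1-overexpressing libraries.

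Nfic and Nfix complete the family. Nfix fell from 248 ± 11.0 to 156 ± 8.27 CPM (SD, n = 3; log2 fold change -0.67, standard error 0.06, adjusted p = 2.21e-06). Nfic was at 205 ± 35.4 and 242 ± 20.2 CPM (log2 fold change 0.24, adjusted p = 0.0848), a difference that did not pass the test here but did under 4 of 15 alternatives. Summed over the 4 genes, the level was between 733 and 782 CPM in control and between 655 and 691 CPM in JAG1-overexpressing libraries, so that Nfia was far higher within a family whose sum was slightly lower. Of 7 genes known to depend on NFIA, NFIB or SOX9 in glia, 3 were tested and all 3 were lower, against 27.7% of all tested genes. They were Aldh1l1, a folate enzyme and astrocyte marker (2.98 to 0.781 CPM, log2 fold change -1.92, adjusted p = 6.17e-05), Zcchc24 (119 to 77.1 CPM, log2 fold change -0.63, adjusted p = 2.35e-06) and Apcdd1, a WNT inhibitor (1.45 to 0.737 CPM, log2 fold change -0.99, adjusted p = 0.0257). The call of Apcdd1 was lost under 5 of 15 alternatives.

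Pax6, on chromosome 2 (105668900 to 105697364, + strand), was at 11.5, 11.5 and 14.5 CPM in control and at 16.5, 16.7 and 11.6 CPM in JAG1-overexpressing cells. Replicate 3 of each group fell within the range of the other group. The log2 fold change was 0.26 (standard error 0.15, 95% interval -0.04 to 0.55), which spans 0. Without JAG1-overexpressing replicate 3 it was 0.41. Other PAX genes were rarer. Of 8 listed, 5 had at most 3 reads in every library, Pax2 rose from 0.431 to 3.53 CPM (log2 fold change 3.02, adjusted p = 3.36e-06) and Pax9 fell from 4.23 to 2.70 CPM (log2 fold change -0.65, adjusted p = 0.0127). The call of Pax9 was lost without control replicate 2 (adjusted p = 0.0652) and, at the threshold itself, without JAG1-overexpressing replicate 1.

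Olig2, on chromosome 16 (91225457 to 91228677, + strand), had 1 read in all, in JAG1-overexpressing replicate 2, and no fold is given. Olig1 had 0 reads and Olig3 at most 2. Of 15 listed relatives, 12 had at most 3 reads in every library, among them the proneural factors Neurog1 and Neurog2. The E proteins, which pair with such factors and are made in most cells, were all lower: Tcf12 (log2 fold change -0.47, adjusted p = 8.26e-05), Tcf3 (-0.45, adjusted p = 6.26e-04) and Tcf4, the most abundant at 176 and 133 CPM (-0.40, adjusted p = 9.01e-05). Of 9 other factors of the oligodendrocyte lineage, 5 had at most 3 reads, and of the 4 tested 1 was lower, the WNT effector Tcf7l2 (58.2 to 44.99 CPM, log2 fold change -0.37, adjusted p = 0.00178). Among all tested genes 27.7% were lower, the share to set beside the E proteins and this list. Yy1, a general factor that oligodendrocytes also need, was at 69.2 and 76.1 CPM (log2 fold change 0.13, adjusted p = 0.0879).

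Factors that share the setting of the members were read from 2 further lists. Of 36 factors of neural progenitors and brain patterning, 18 had at most 3 reads in every library. The other 18 were tested, of which 12 were higher and 2 lower (median 0.42 on the log2 scale). Among all tested genes, 27.4% were higher and 27.7% lower. The lists were chosen with earlier results of these data known, so that no enrichment is read from such counts. The POU factors that partner SOX2 and SOX11 in neural cells stood at the top. Pou3f3 rose from 1.85 ± 0.193 to 63.9 ± 3.94 CPM (log2 fold change 5.11, standard error 0.11, adjusted p = 6.34e-11). Pou3f2 had 0 reads in control and 135 to 205 reads per JAG1-overexpressing library, at least 66.2-fold higher, and passed the filter through the latter libraries. Dlx2 rose from 0.822 to 2.10 CPM (log2 fold change 1.35, adjusted p = 0.00219), and Meis1 fell from 13.0 to 3.26 CPM (log2 fold change -1.98, adjusted p = 2.49e-07).

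Of 8 other astrocyte factors, 5 were tested and 4 were higher, with a median log2 fold change of 2.05, where 27.4% of all tested genes were higher. Rorb, a nuclear receptor, had 3, 4 and 0 reads in control and was at 9.33 ± 0.574 CPM in JAG1-overexpressing cells (adjusted p = 4.39e-08). With control reads near the limit of detection its fold is uncertain: the log2 fold change was 6.20 (standard error 0.33), 6.82 without control replicate 2 and 5.63 without control replicate 3. Stat3, which carries cytokine signals to glial genes, rose from 21.3 ± 0.504 to 39.3 ± 2.84 CPM (log2 fold change 0.89, adjusted p = 2.92e-06). Npas3 and Prdm16, both under 1 CPM on average, were also higher (2.62 and 2.05 on the log2 scale). In the control libraries Npas3 had 5, 3 and 6 reads and Prdm16 had 7, 3 and 6. Rorb, Npas3 and Prdm16 passed the filter through their JAG1-overexpressing libraries, so that nothing is read from the count or median of this list. Zbtb20, at 8.87 and 9.99 CPM, did not pass the test (adjusted p = 0.227). Over the 178 listed genes that are no members, 70 were tested, with 20 higher and 32 lower, against 27.4% and 27.7% of all tested genes.

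**Figure D3:**
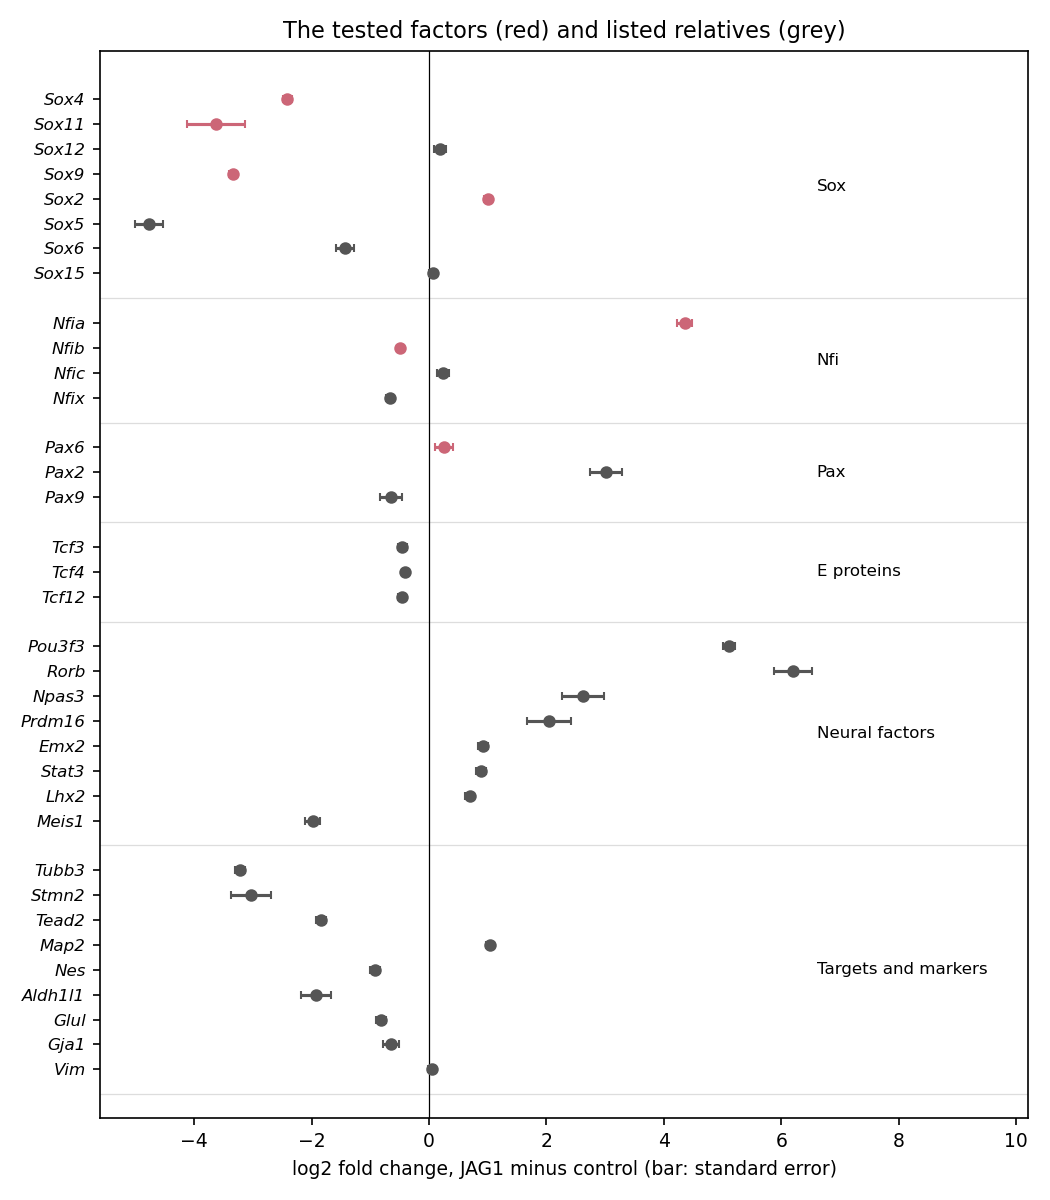
log2 fold change (JAG1-overexpressing over control) of the tested members (red) and of listed relatives, target genes and markers (grey), with bars of 1 standard error. Nfia, Pou3f3, Rorb and Pax2 lie far to the right, and Sox5, Sox11, Sox9 and Tubb3 far to the left.

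Marker lists of cell types were summed to set the members beside the make-up of the cultures. In bulk RNA, fewer cells of a type and less RNA per cell cannot be told apart. Of 13 astrocyte markers, 8 were tested and 7 were lower, among them Glul (26.8 to 15.2 CPM, log2 fold change -0.82, adjusted p = 1.42e-05) and Aldoc (1.75 to 0.530 CPM, log2 fold change -1.68, adjusted p = 0.00896). Aldoc was uneven between libraries, with 57, 19 and 27 reads in control and 13, 4 and 11 in JAG1-overexpressing cells. With 1 library left out its value ranged from -1.95 to -1.15. The summed level of the list, mostly Vim, was 3110 to 3600 CPM in control and 3340 to 3410 CPM in JAG1-overexpressing libraries. Mesenchymal markers summed to between 606 and 659 CPM in control and between 323 and 364 CPM in JAG1-overexpressing libraries, with 5 of 7 tested genes lower and 1 higher. Col3a1 fell from 199 to 61.2 CPM (log2 fold change -1.70, adjusted p = 2.23e-08), Pdgfrb from 82.2 to 26.1 CPM (-1.66, adjusted p = 3.74e-08), Dcn from 2.22 to 0.264 CPM (-3.09, adjusted p = 1.27e-04) and Col1a1, the most abundant, from 236 to 164 CPM (-0.53, adjusted p = 3.50e-05), whereas Col1a2 rose from 3.35 to 50.7 CPM (3.92, adjusted p = 1.42e-09). Dcn had 5, 7 and 1 reads in the JAG1-overexpressing libraries, near the limit of detection, so that its fold is uncertain. It passed the filter through its control libraries. Without JAG1-overexpressing replicate 2 the value of Dcn was -3.71.

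Neural crest and Schwann cell markers went from between 20.7 and 25.0 CPM to between 10.6 and 11.7 CPM, with Tfap2a (log2 fold change -0.99, adjusted p = 1.28e-05) and Prx (-1.14, adjusted p = 4.42e-04) lower. Oligodendrocyte lineage markers summed to at most 6.82 CPM, with Mog, Mag, Cspg4 and Ugt8a at 0, Cnp lower (1.97 to 0.445 CPM, adjusted p = 1.23e-04) and Pdgfra at 3.14 and 3.96 CPM (adjusted p = 0.126). Microglia markers summed to at most 4.35 CPM, where Tmem119 fell from 2.24 to 0.103 CPM (log2 fold change -4.42, adjusted p = 5.61e-06) and Cx3cr1 rose from 0.713 to 1.26 CPM (0.82, adjusted p = 0.0449). Tmem119 had 1, 2 and 2 reads in the JAG1-overexpressing libraries, within the limit of detection, so that its fold is uncertain. Tmem119 and Cnp passed the filter through their control libraries. Endothelial markers summed to at most 0.322 CPM, with Pecam1 the most abundant at 0.156 and 0.0634 CPM. Neuron markers went from between 100 and 110 CPM to between 58.5 and 61.7 CPM. Beside the lower Sox4, Sox9 and Sox11 there were thus 7 of 8 tested astrocyte markers, 5 of 7 mesenchymal, both neural crest and 2 of 3 neuron markers that were lower. Col1a2 and Map2 were higher. Of the oligodendrocyte lineage markers 1 of 3 tested was lower, and of the 2 tested microglia markers 1 was lower and 1 higher. Apoe, called lower, overlapped between the groups. Nes, S100b and Aldh1l1 were also counted among the target genes above. The part of such cells in those results was not tested. Over all tested genes, 27.7% were lower and 27.4% higher.

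The position of the genes was examined because whole chromosomes differed between the groups, the median change being 0.61 (log2) for chromosome 19 and -0.53 for chromosome 15. Of the 9 factors, Sox10 lies on chromosome 15 and none on chromosome 19. The medians of the chromosomes that hold the other 8 were between -0.11 and 0.05. The tested members there ranged from -3.63 for Sox11 to 4.35 for Nfia, with Nfib at -0.50 and Pax6 at 0.26. The part of chromosome position in these values was not tested. Along the chromosome, the 6 nearest tested genes of Nfia had log2 fold changes between -0.32 and 0.21, those of Sox4 between -0.70 and 0.75, and those of Sox11 between -0.88 and 1.14. These genes lay far away, 520.8 to 2887.9 kb from Nfia, 572.4 to 4028.7 kb from Sox4 and 888.9 to 2243.5 kb from Sox11. The tested neighbours of Sox9, the nearest of them 662.5 kb away, ranged from -1.40 for Kcnj2, a potassium channel, to 1.55 for Abca5, and those of Sox2 from -0.09 to 0.73. For Nfib, 4 of 6 neighbours were higher and none lower, the opposite direction to Nfib itself. The neighbours of Nfib were 430.9 to 7120.6 kb away and those of Sox2 581.9 to 1327.3 kb. Pax6 lay within the range of its own neighbours, which was -0.27 to 0.45.

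**Figure D4:**
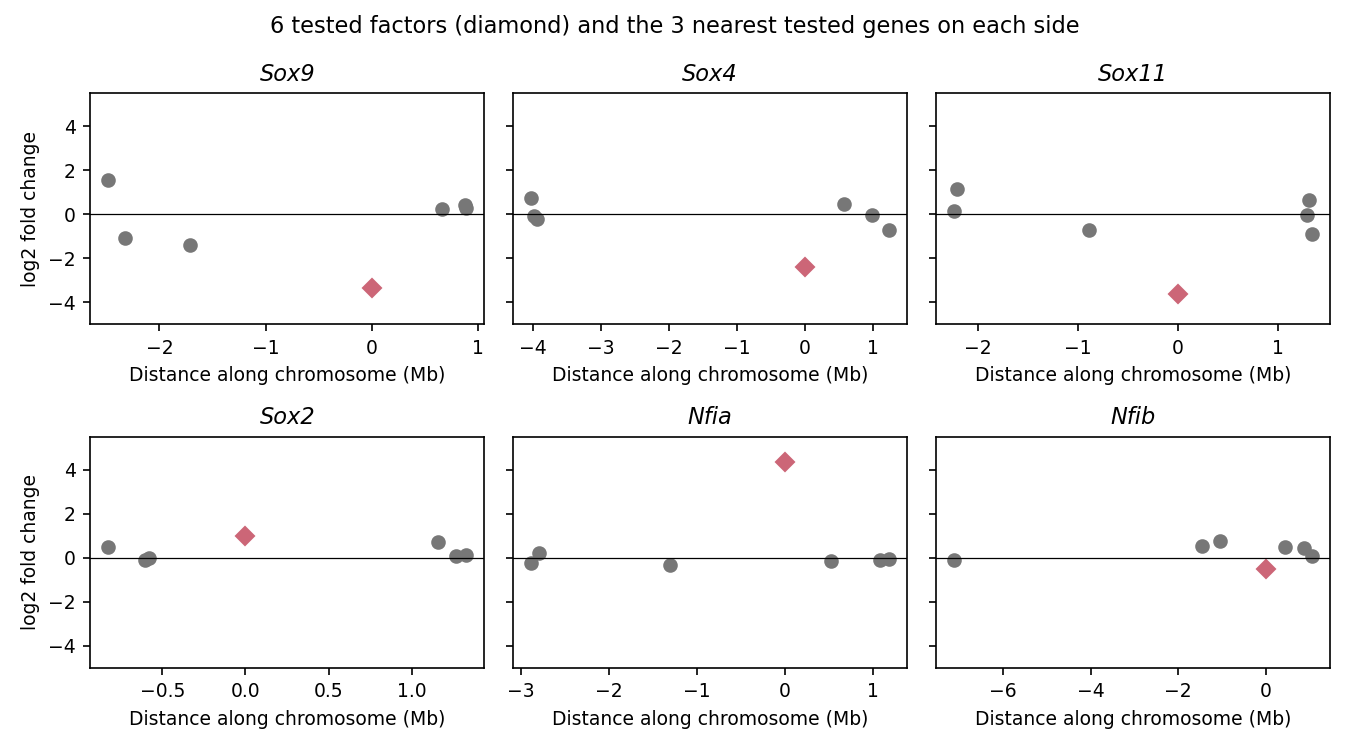
log2 fold change of 6 tested factors (diamond) and of the 3 nearest tested genes on each side (grey), by distance along the chromosome in Mb. Each of the 6 diamonds lies outside the range of its own neighbours, by little for Sox2 and Nfib. The 6 are the members past the threshold, chosen with their change known, so that nothing is read from this. Pax6, not drawn, was at 0.26, within its neighbours' range of -0.27 to 0.45.

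Opposite-strand genes overlap several of the loci, and the strand setting of the counting is not given in the sources used here. Of 4 listed overlapping or antisense transcripts, not all of them at the members' loci, none had enough reads to be tested. Pax6os1 had 0 reads, and E130114P18Rik, which is not on that list and overlaps the start of Nfia, had at most 1. Gm26735, on the strand opposite to Sox4, and the genes that overlap Nfib were not analysed here.

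The genes most like each member in level and pattern were found by the root mean square distance of log2 CPM over the 6 libraries. For Nfia they were Col1a2 (distance 0.398), Pou3f3 (0.520) and Il15ra (0.862), and for Sox9 Pmepa1 (0.318), Ttyh3 (0.412) and Tsnax (0.459). Sox4 was nearest to Scx, a tendon factor (0.295), Sdpr (0.411) and Myh9 (0.477), and Sox11 to Vpreb1 (0.297), Wnt5a (0.307) and Slc40a1 (0.309). Sox2 had closer neighbours in this measure, Ak3 (0.0759), Rfc2 (0.0971) and Mrpl36 (0.105), as did Nfib with Foxp1 (0.0546), Nrp2 (0.0626) and Cct5 (0.0767). For Pax6, Dusp4 (0.148) and Gcfc2 (0.159) were among the nearest.

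In order of mean level, control cells had Sox4, Nfib, Sox9, Sox2, Pax6, Nfia and Sox11, and JAG1-overexpressing cells had Nfib, Sox4, then Nfia and Sox2 at 63.9 ± 3.44 and 63.4 ± 4.204 CPM, then Sox9 and Pax6 at 17.96 ± 1.25 and 15.0 ± 2.91 CPM, and Sox11. Nfia and Sox2 did not differ beyond their spread in the latter group. Sox9 and Pax6 overlapped there, since the lowest library of Sox9 was at 16.63 CPM and the highest of Pax6 at 16.71 CPM. In control cells each neighbouring pair in this order was separated without overlap.

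**Figure D5:**
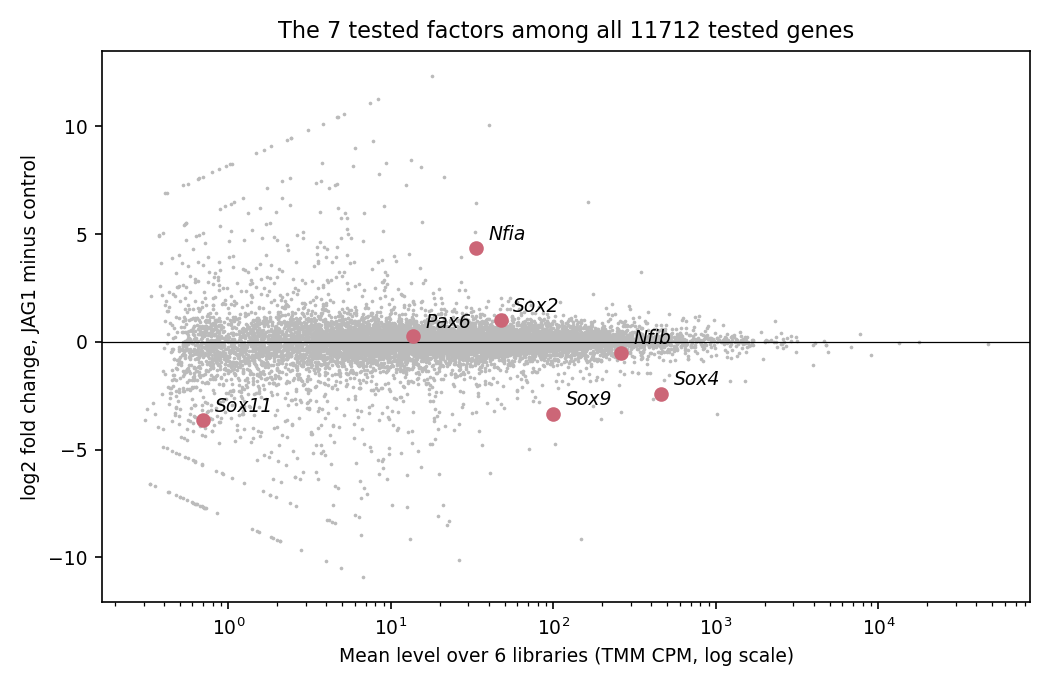
log2 fold change (JAG1-overexpressing over control) against mean level (TMM CPM, log scale) for the 11712 tested genes (grey) and the 7 tested factors (red). Nfia lies at 4.35, Sox2 at 1.01 and Pax6 at 0.26, and Nfib lies at -0.50, Sox4 at -2.41, Sox9 at -3.33 and Sox11 at -3.63.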

How the data were processed

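RNA of 3 control and 3 JAG1-overexpressing mouse astrocyte libraries was sequenced as QuantSeq 3' libraries. The authors deposited, per library, raw read counts per gene symbol and normalized log2 values, whose normalization is not given in the sources used here. Per the submitters' processing notes, Bowtie2, bedtools, edgeR and the builds GRCm38 and mm10 were used. The raw counts were analysed with edgeR 4.0.16 in R 4.3.3: filterByExpr with a minimum count of 10, TMM normalization, the quasi-likelihood test of the 2 groups without further terms and Benjamini-Hochberg adjustment over 11712 genes, with a threshold of 0.05. The deposited log2 values served only for an alternative. Standard errors were derived from the F statistic. The code was tested on simulated data.

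The members and lists were chosen with earlier results of these data known. The text names, per list, up to 4 called genes with the largest change whose mean reached 1 CPM and the most abundant gene; other genes were named after their values were seen, and some genes that the rule picks are not reported here. Of the tested symbols, 11646 matched RefSeq GRCm38.p6. The log2 CPM for distances had a prior count of 2. DESeq2 1.42.0 and limma 3.58.1 were used for alternatives.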

Additional observations from a re-analysis of the deposited data

How the results depend on the processing

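Alternatives were DESeq2's size factors and Wald test, limma-voom, library size alone, upper-quartile normalization, 2 other filters, a replicate block, the deposited log2 values, omission of single libraries and a 1.5-fold limit. The number of genes called changed by over 1.5 times with the fold limit, from 3211 to 1395 higher and from 3247 to 1711 lower. With 1 library left out, 2697 to 3205 genes were higher and 2775 to 3343 lower. Among the members, the log2 fold change stayed between -3.38 and -3.28 for Sox9, -2.50 and -2.33 for Sox4, -3.87 and -3.08 for Sox11, 0.98 and 1.06 for Sox2, 4.26 and 4.54 for Nfia, -0.54 and -0.48 for Nfib and 0.17 and 0.41 for Pax6. Pax6 passed the threshold in 1 of 15 fits, without JAG1-overexpressing replicate 3. For genes that did not pass the test, the sign was reversed for Mitf, to -0.0055 with upper-quartile normalization and within a range of -0.058 to 0.10 with 1 library left out, and for Vim, whose range with 1 library left out was -0.0058 to 0.085. The cause was not tested. In the labels, same-numbered libraries share only a number. The correlations of their deviations from the group means were 0.148, 0.0614 and 0.119. Each was higher than those between libraries of different number, which ran from -0.144 to 0.0109. Whether same-numbered libraries were prepared together is not given and was not tested. The replicate block gave 3380 genes higher and 3331 lower, with 2 members higher and 4 lower as without it. Among the members, depth limits Sox10, Olig2 and the JAG1-overexpressing value of Sox11, which are at or under 3 reads.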
